A study of Mus musculus with 13 samples.

Results

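The mitochondrial one-carbon enzymes were followed in hearts of OMA1+/- C10 G58R mice in which Oma1 had been knocked down. They were chosen by name as 9 genes of the folate and glycine cleavage reactions of the matrix (Mthfd2, Mthfd2l, Mthfd1l, Shmt2, Aldh1l2, Mtfmt, Gldc, Amt and Gcsh), out of 19505 genes with a symbol on the array. All 13 mice, controls included, carried the C10 G58R allele, a knock-in made by CRISPR/Cas9 in C57Bl6J mice, and were heterozygous for an OMA1 knockout allele. They received weekly subcutaneous antisense oligonucleotide (ASO) at 50 mg/kg, either OMA1 ASO1 (5 mice), OMA1 ASO2 (3 mice) or a nontargeting CTRL ASO (5 mice), and their PBS-perfused hearts were collected when they were 33 weeks old. Each heart gave 1 Clariom S Mouse array, and values are log2 signals. The series holds no wild-type and no untreated hearts, so each comparison is between treated mice of 1 genotype. Some mice died during OMA1 ASO treatment. By the counts in the paper fewer OMA1 ASO-treated mice survived than the 8 OMA1 ASO arrays held here. The paper describes collecting the hearts after the final tests, so its counts and the arrays do not match. The labels do not explain this, and whether any array came from a mouse that died cannot be told.

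One-carbon units are carried on tetrahydrofolate, and the matrix enzymes take them from serine and glycine and release them as formate, which the cytosol uses for purines, thymidylate and methyl groups. SHMT2 splits serine into glycine and methylene-tetrahydrofolate. MTHFD2 and MTHFD2L oxidize methylene-tetrahydrofolate to formyl-tetrahydrofolate, MTHFD1L frees formate from it, and ALDH1L2 oxidizes the formyl group to CO2. MTFMT uses the formyl group to modify the initiator methionyl-tRNA of mitochondrial translation. GLDC (P protein), AMT (T protein) and GCSH (H protein, which carries lipoic acid) belong to the glycine cleavage system, which is best known from liver, kidney and brain. Stress at the inner mitochondrial membrane activates the protease OMA1, whose cleavage of DELE1 starts the integrated stress response. MTHFD2 and SHMT2 are known as targets of ATF4, the transcription factor of that response.

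In these hearts Oma1, the targeted gene, was below background on all 8 OMA1 ASO arrays (3.74 to 5.48) and lay at 9.13 to 9.83 on the CTRL ASO arrays, a signal at least 10.7-fold lower with OMA1 ASO (log2 fold change −4.58, adjusted p = 7.08e-09 from limma). Background was taken per array as the brightest of its 23 background probe groups, a level of 5.77 to 6.07. Median signals ran from 5.24 to 5.34 over the arrays, and 9299 to 10069 of 22206 transcript clusters were above background. OMA1 ASO1 replicate 5 stood apart most, with a mean correlation of 0.974 with its group against 0.984 or more for the other 12 arrays. Chchd10, the mutated gene, lay at 13.91 to 15.96 with OMA1 ASO and 15.47 to 16.48 with CTRL ASO (log2 fold change −1.16, adjusted p = 0.0258 from limma, not past the threshold of 0.01). Atf4 lay at 10.53 to 12.70 with OMA1 ASO and 13.60 to 14.59 with CTRL ASO (log2 fold change −2.99, adjusted p = 5.44e-06 from limma). Y-linked genes were above background on 2 of 5 OMA1 ASO1, 0 of 3 OMA1 ASO2 and 2 of 5 CTRL ASO arrays. The labels do not give the sex of the mice. All 6 cardiomyocyte markers were above background on every array, with a summed level of 21.57 to 21.72 with OMA1 ASO and 21.50 to 21.69 with CTRL ASO, and no marker of 8 cell type lists passed the pooled test.

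Promoters are shown for the pair of matrix dehydrogenases, of which Mthfd2 fell and Mthfd2l did not pass, for the serine-splitting enzyme Shmt2, and for Asns, an ATF4 target whose signal followed Mthfd2 closely. Each is the 250 bases before the annotated start in RefSeq, assembly GRCm38.p6, read 5′ to 3′ on the strand of the gene. Capitals mark the CCAAT box, CCAAT or its reverse complement ATTGG, and in Asns the C/EBP-ATF response element TGATGNAA.
Mthfd2, chr6:83317605-83317854, minus strand: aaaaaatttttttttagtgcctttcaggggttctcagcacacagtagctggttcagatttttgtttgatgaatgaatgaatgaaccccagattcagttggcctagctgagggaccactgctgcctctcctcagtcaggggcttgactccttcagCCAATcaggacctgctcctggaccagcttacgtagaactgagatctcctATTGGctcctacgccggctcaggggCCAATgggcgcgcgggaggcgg
Mthfd2l, chr5:90930946-90931195, plus strand: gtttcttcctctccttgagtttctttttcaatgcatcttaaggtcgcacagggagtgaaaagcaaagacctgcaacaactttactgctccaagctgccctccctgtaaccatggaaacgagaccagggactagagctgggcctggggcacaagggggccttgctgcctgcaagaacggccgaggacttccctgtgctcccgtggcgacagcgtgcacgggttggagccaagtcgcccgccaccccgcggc
Shmt2, chr10:127522445-127522694, minus strand: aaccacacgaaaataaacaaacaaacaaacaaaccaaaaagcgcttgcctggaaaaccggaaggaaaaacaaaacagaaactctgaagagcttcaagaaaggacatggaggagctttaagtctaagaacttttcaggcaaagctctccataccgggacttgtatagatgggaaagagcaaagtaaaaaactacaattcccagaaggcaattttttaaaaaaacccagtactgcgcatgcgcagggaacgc
Asns, chr6:7693210-7693459, minus strand: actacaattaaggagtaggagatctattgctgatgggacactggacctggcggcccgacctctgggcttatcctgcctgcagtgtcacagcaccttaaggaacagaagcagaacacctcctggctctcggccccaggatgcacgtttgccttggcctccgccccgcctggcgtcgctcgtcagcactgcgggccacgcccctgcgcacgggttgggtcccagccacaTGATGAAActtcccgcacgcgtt

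Promoters of 8 of the 9 members were matched. The member without a promoter entry was Aldh1l2, which fell with OMA1 ASO, so the counts below do not cover it. The C/EBP-ATF response element, a motif bound by ATF4 dimers, was searched as TGATGNAA on both strands and occurred in 0 of 8 members, in Asns 23 bases before the start, and in 3.45% of 32851 promoters of the same length. The E-box CACGTG occurred in 0 of 8 members and in 6.02% of promoters. Mthfd2 held 3 CCAAT boxes, at 96, 47 and 22 bases before the start, where 33.8% of promoters held at least 1 and 2.67% held 3 or more. Gcsh held 2, Gldc and Amt 1 each, and Mthfd2l, Mthfd1l, Shmt2 and Mtfmt 0. The CCAAT box was chosen after the sequences had been read. A match here is a description of the letters in this window.

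With both OMA1 ASOs pooled, 3 of the 9 members were lower (Mthfd2, Aldh1l2 and Shmt2) and 0 were higher at an adjusted p under 0.01, where 0.806% of all 22206 clusters were lower. The members that fell were the dehydrogenase that is induced in stress, the formyl-tetrahydrofolate dehydrogenase and the serine enzyme, while the other 6 did not pass. For Mthfd2 and Aldh1l2 every OMA1 ASO array lay below every CTRL ASO array, as held for 1.39% of all clusters. The median log2 fold change of the 9 members was −0.26, the value of Mthfd2l, against 0.01 for all clusters. This median counts Gldc and Amt, which were below background on every array. It therefore lies closer to no change than the median of the members with a signal. The arrays measured whole heart tissue, in which fewer cells of a type and less RNA per cell cannot be told apart.

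**Figure D1:**
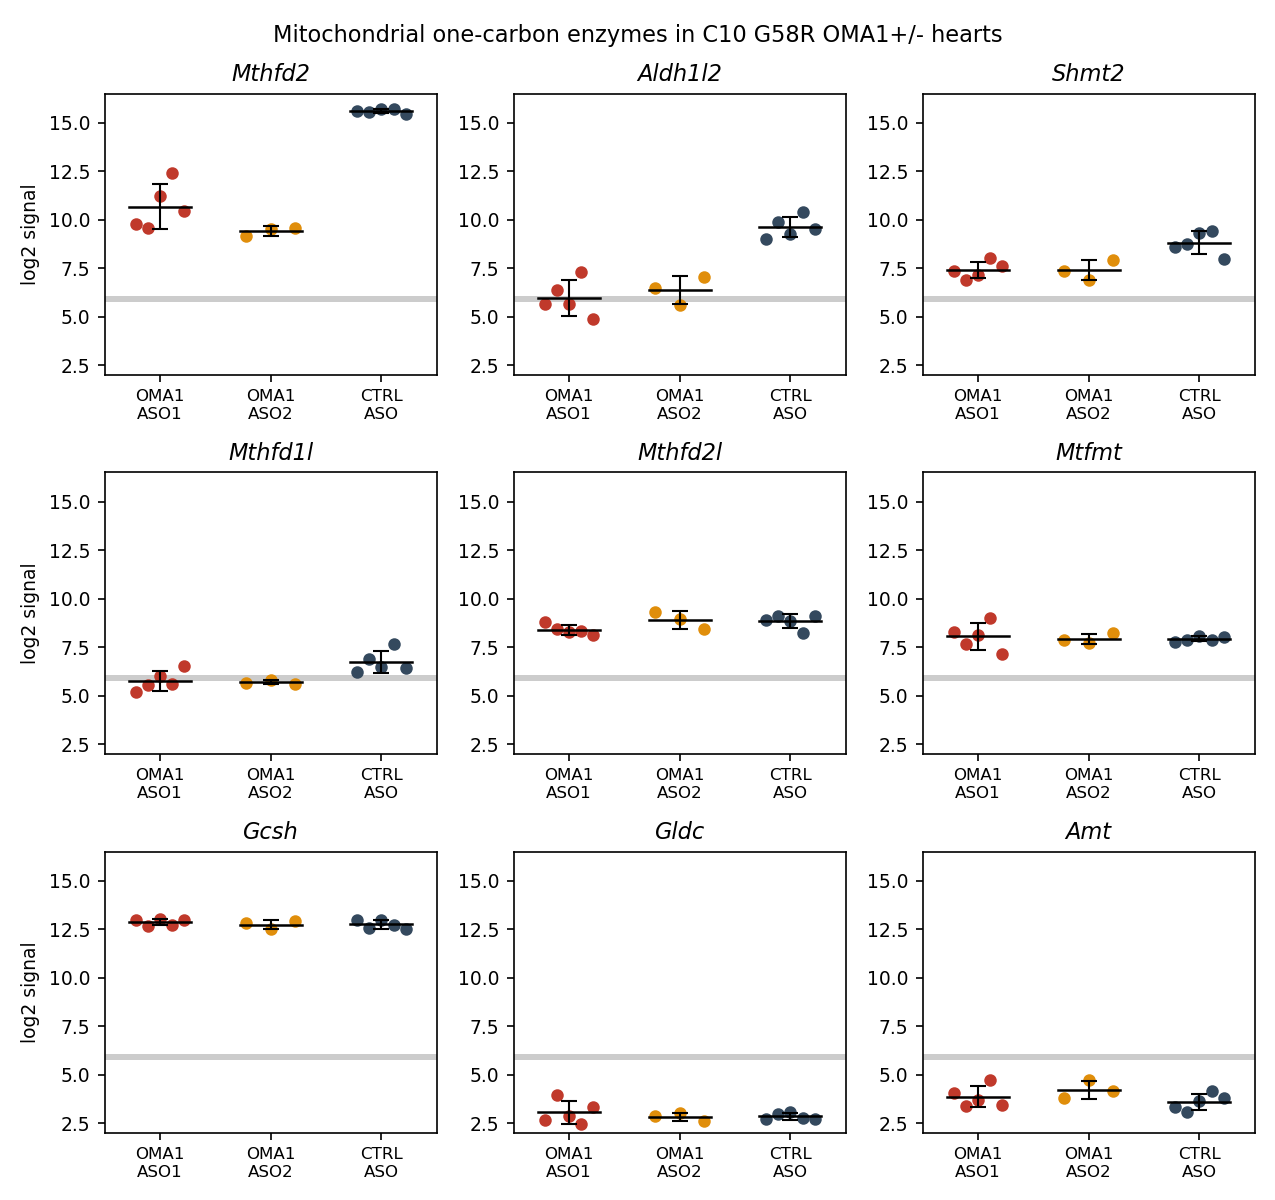
Log2 signal of each member in OMA1 ASO1 (5 arrays), OMA1 ASO2 (3 arrays) and CTRL ASO (5 arrays) hearts, 1 point per mouse, with the mean and SD. The grey band spans the background level of the arrays, 5.77 to 6.07. Mthfd2 and Aldh1l2 separate fully from CTRL ASO, Shmt2 nearly so, and Gldc and Amt lie below the band on all arrays.

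Shmt2 (cluster TC1000003117.mm.2, chromosome 10), which feeds the pathway from serine, read 7.34, 6.88, 7.16, 8.03 and 7.59 with OMA1 ASO1 and 7.35, 6.90 and 7.92 with OMA1 ASO2, against 8.59, 8.73, 9.31, 9.42 and 7.95 with CTRL ASO. The groups met at 1 point, where OMA1 ASO1 replicate 4 lay above CTRL ASO replicate 5. Shmt2 averaged 7.40 ± 0.43 with OMA1 ASO (SD, n = 8) and 8.80 ± 0.60 with CTRL ASO (SD, n = 5), 2.65-fold lower (log2 fold change −1.40, standard error 0.252, adjusted p = 0.00422 from limma). The fall was of the same size with each ASO, −1.40 with ASO1 and −1.41 with ASO2, and neither passed alone (adjusted p = 0.0148 and 0.0403). The pooled call ended when any of CTRL ASO replicates 1 to 4, or OMA1 ASO1 replicate 3, was left out (adjusted p up to 0.0205). It also ended among the arrays without Y-linked signal, a set chosen after the data were seen (−1.21, adjusted p = 0.0890).

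Mthfd2 (cluster TC0600002565.mm.2, chromosome 6), the NAD-dependent dehydrogenase and cyclohydrolase that is low in most adult tissues and induced in stressed mitochondria, was the member that fell furthest. It read 9.77, 9.55, 11.20, 12.38 and 10.45 with OMA1 ASO1 and 9.14, 9.54 and 9.56 with OMA1 ASO2, against 15.62, 15.55, 15.71, 15.71 and 15.43 with CTRL ASO. The CTRL ASO arrays lay within 0.28 log2 units of each other, the ASO2 arrays within 0.42, and the ASO1 arrays spread over 2.83, with replicates 4 and 3 the least reduced. The fall was 42.4-fold over both ASOs (log2 fold change −5.41, standard error 0.414, adjusted p = 3.31e-07 from limma), the second largest fall in signal of all clusters. It was 30.6-fold with ASO1 (−4.94, adjusted p = 1.02e-06) and 73.0-fold with ASO2 (−6.19, adjusted p = 8.25e-07), the largest fall in that comparison. Despite it, Mthfd2 stayed above background on all 8 OMA1 ASO arrays.

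Mthfd2l (cluster TC0500000852.mm.2, chromosome 5) encodes the other matrix dehydrogenase and cyclohydrolase, which is expressed in healthy adult tissue. It read 8.81, 8.42, 8.29, 8.32 and 8.12 with OMA1 ASO1 and 9.31, 8.96 and 8.42 with OMA1 ASO2, against 8.88, 9.08, 8.86, 8.24 and 9.13 with CTRL ASO. The OMA1 ASO1 arrays reached the CTRL ASO range only through CTRL ASO replicate 4, the lowest of its group. The OMA1 ASO2 arrays overlapped that range more widely. The pooled log2 fold change of −0.26 did not pass (95% interval −0.70 to 0.18, adjusted p = 0.695 from limma). It was −0.45 with ASO1 (95% interval −0.90 to 0.0023, adjusted p = 0.417 from limma) and 0.06 with ASO2 (adjusted p = 0.963), and neither passed. The fall of Mthfd2 exceeded that of Mthfd2l by 5.15 log2 units, taken as the per-array difference between their signals, which spanned −0.17 to 4.06 with OMA1 ASO and 6.30 to 7.46 with CTRL ASO. A two-sided exact permutation test gave p = 0.000777, the smallest that 8 against 5 arrays allow. The same difference was −4.49 with ASO1 alone (p = 0.00794, exact permutation) and −6.25 with ASO2 alone (p = 0.0179, exact permutation), also the smallest those numbers allow. This compares how far each signal moved, not the levels of the pair. Mthfd2 alone separated the groups by 3.05 log2 units, more than the whole range of Mthfd2l, 8.12 to 9.31. The smallest p-values therefore follow from the fall of Mthfd2 and add no separate support.

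Mthfd1l (cluster TC1000000015.mm.2, chromosome 10), the synthetase that releases formate from formyl-tetrahydrofolate, was dim in these hearts. It read 5.16, 5.54, 6.0002, 5.57 and 6.50 with OMA1 ASO1 and 5.65, 5.80 and 5.60 with OMA1 ASO2, against 6.20, 6.91, 6.46, 7.67 and 6.43 with CTRL ASO. Only OMA1 ASO1 replicate 5 was above background among the treated hearts, and all 5 CTRL ASO arrays were. The fitted change of −1.01 did not pass (95% interval −1.52 to −0.50, adjusted p = 0.0351 from limma), and without OMA1 ASO1 replicate 5, the array that overlapped CTRL ASO, it did (−1.12, adjusted p = 0.00787). That was the only 1 of 13 arrays whose removal had this effect. Without CTRL ASO replicate 4, the brightest array, the change was −0.77 (adjusted p = 0.118 from limma). With ASO2 all 3 arrays were below background, which puts the signal at least 1.71-fold lower than with CTRL ASO (adjusted p = 0.139).

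Aldh1l2 (cluster TC1000002583.mm.2, chromosome 10), which burns the formyl group to CO2 and yields NADPH, read 5.64, 6.39, 5.63, 7.28 and 4.86 with OMA1 ASO1 and 6.50, 5.57 and 7.04 with OMA1 ASO2, against 9.02, 9.88, 9.25, 10.37 and 9.52 with CTRL ASO. The groups were apart by 1.75 log2 units between the highest OMA1 ASO array and the lowest CTRL ASO array. The fitted Aldh1l2 signal was 11.3-fold lower over both ASOs (log2 fold change −3.49, standard error 0.351, adjusted p = 7.87e-06 from limma). It fell by 3.65 with ASO1 (adjusted p = 2.94e-05) and fell by 3.24 with ASO2 (adjusted p = 0.000617). Background was exceeded on 2 of 5 ASO1 arrays, 2 of 3 ASO2 arrays and all CTRL ASO arrays, so these fitted changes include treated signals below the limit of the array. With such signals set to the background of their array, Aldh1l2 was at least 9.16-fold lower over both ASOs, 9.60-fold with ASO1 and 8.48-fold with ASO2.

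Mtfmt (cluster TC0900000844.mm.2, chromosome 9), the branch of the pathway that serves mitochondrial translation, read 8.29, 7.68, 8.13, 9.01 and 7.14 with OMA1 ASO1 and 7.87, 7.70 and 8.22 with OMA1 ASO2, against 7.75, 7.88, 8.07, 7.88 and 8.03 with CTRL ASO. The ASO1 arrays lay on both sides of all CTRL ASO arrays. The log2 fold change of 0.08 did not pass (95% interval −0.40 to 0.57, adjusted p = 0.936 from limma). The SD was 0.70 with ASO1 (n = 5), 0.27 with ASO2 (n = 3) and 0.13 with CTRL ASO (n = 5).

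The glycine cleavage genes did not pass in any comparison. Gcsh (cluster TC0800003008.mm.2, chromosome 8), whose product also hands lipoic acid to other enzymes, read 12.97, 12.67, 13.04, 12.70 and 12.95 with OMA1 ASO1 and 12.79, 12.49 and 12.93 with OMA1 ASO2, against 12.96, 12.56, 12.99, 12.72 and 12.52 with CTRL ASO. Its 3 groups covered the same range, and the interval of its change was the narrowest of the members with a signal above background (log2 fold change 0.07, 95% interval −0.24 to 0.37, adjusted p = 0.912 from limma). Gldc (cluster TC1900001355.mm.2, chromosome 19), the decarboxylase that opens the cleavage of glycine, lay at 2.47 to 3.95 with OMA1 ASO and 2.70 to 3.06 with CTRL ASO. Amt (cluster TC0900001399.mm.2, chromosome 9), the aminomethyltransferase, lay at 3.39 to 4.73 with OMA1 ASO and 3.06 to 4.15 with CTRL ASO. Both were below background on all 13 arrays, so no fold is given for either. Of the 4 hepatocyte markers, whose tissue is rich in glycine cleavage, 3 were below background on every array, and their summed level was 6.08 to 7.47 with OMA1 ASO and 5.85 to 6.39 with CTRL ASO.

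**Figure D2:**
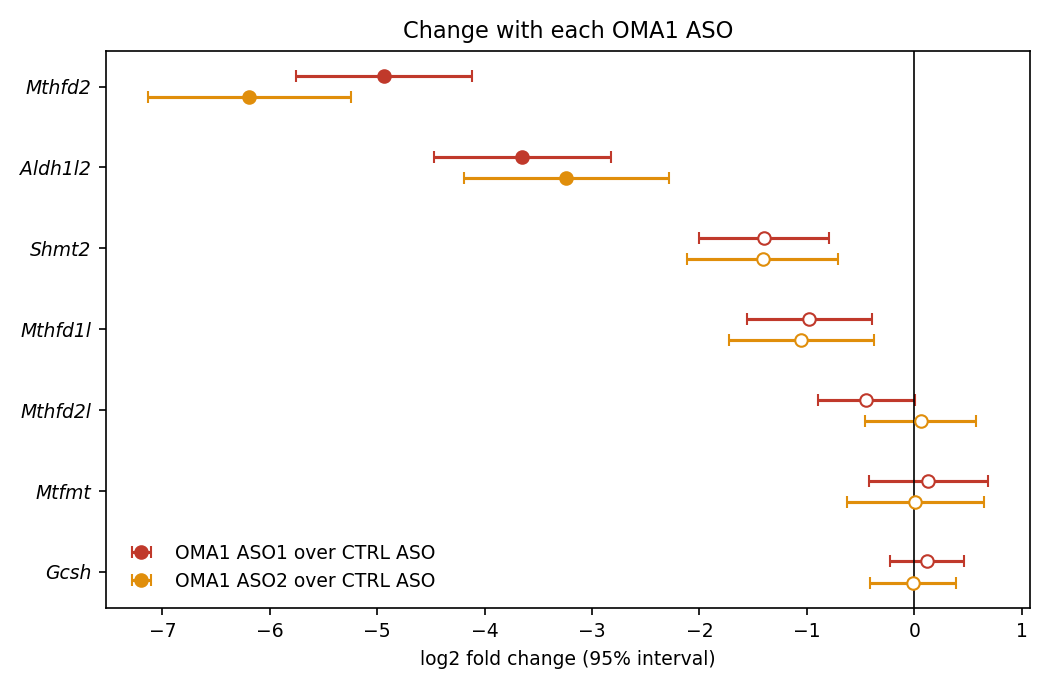
Log2 fold change of 7 members with OMA1 ASO1 and OMA1 ASO2, each over CTRL ASO, with 95% intervals from limma. Filled points passed at an adjusted p under 0.01. Both ASOs lowered Mthfd2 and Aldh1l2, and the intervals of Mthfd2l, Mtfmt and Gcsh include 0 with both. The Mthfd1l and Aldh1l2 points are fitted values that include treated signals below background, and Gldc and Amt are left out.

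Set against CTRL ASO separately, each OMA1 ASO lowered the same 2 members, Mthfd2 and Aldh1l2, and raised 0. Over all clusters 0.721% were lower with ASO1 and 0.576% with ASO2. Both comparisons share the CTRL ASO arrays. Compared directly, OMA1 ASO2 and OMA1 ASO1 differed in 0 of 9 members by limma at an adjusted p under 0.01, where 0.104% of all clusters differed in either direction, and 1 member had an unadjusted p under 0.05. That member was Mthfd2, which averaged 9.41 ± 0.24 with ASO2 (SD, n = 3) and 10.67 ± 1.15 with ASO1 (SD, n = 5), a log2 fold change of −1.25 (95% interval −2.20 to −0.31, adjusted p = 0.456). For Aldh1l2 the difference between the ASOs was 0.41 (95% interval −0.54 to 1.36) and for Shmt2 −0.01 (95% interval −0.71 to 0.69). For Mthfd2l it was 0.51 (95% interval −0.01 to 1.03, adjusted p = 0.654 from limma).

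The arrays of OMA1 ASO-treated hearts were not reduced to the same degree for each gene. OMA1 ASO1 replicate 4 was the least reduced for Mthfd2, Aldh1l2 and Shmt2, while OMA1 ASO1 replicate 5 had the lowest Aldh1l2 and the highest Mthfd1l of the treated arrays. Over the 8 OMA1 ASO arrays, 5 of ASO1 and 3 of ASO2, Mthfd2 was set against the other 8 members and Atf4, 9 relations in all. Differences between the ASOs enter these relations, since ASO2 over ASO1 was −1.25 for Mthfd2 and 0.51 for Mthfd2l. None of the 9 relations passed after adjustment over them. The strongest by rank was with Mthfd2l, which ran the opposite way (Pearson's r = −0.61, exact permutation p = 0.103, adjusted 0.638, and Spearman's rho = −0.81, exact permutation p = 0.0218, adjusted 0.196, n = 8). Without OMA1 ASO1 replicates 4 and 3, the arrays farthest from the median of Mthfd2, its r was −0.78. The sign of r turned without these arrays for 4 members, so it rests on them. For Aldh1l2 r was 0.18 over 8 arrays (exact permutation p = 0.676, adjusted 0.778) and −0.76 over the other 6. For Mtfmt it was 0.57 over 8 arrays (exact permutation p = 0.164, adjusted 0.638) and −0.57 over the 6. The others were Amt (0.29 and −0.33) and Gldc (−0.35 and 0.21), whose signals were below background. With Atf4, r was 0.11 over 8 arrays (exact permutation p = 0.778, adjusted 0.778) and 0.87 over the 6. The values over 6 arrays were not tested.

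**Figure D3:**
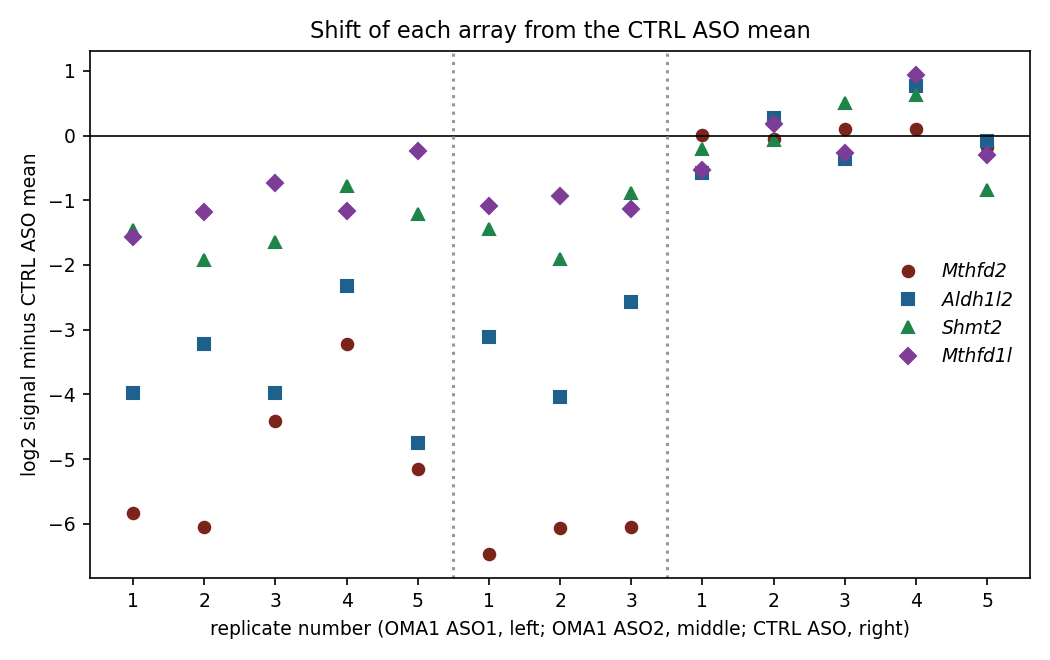
Log2 signal of Mthfd2, Aldh1l2, Shmt2 and Mthfd1l on each array minus the mean of the CTRL ASO arrays, for OMA1 ASO1 (left), OMA1 ASO2 (middle) and CTRL ASO (right). OMA1 ASO1 replicates 4 and 3 are the least reduced for Mthfd2, and replicate 5 is close to CTRL ASO for Mthfd1l.

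Among 19563 other clusters with a single symbol, the 5 whose signals followed Mthfd2 most closely over the 13 arrays were Ghitm, Asns, Atf5, Lonp1 and Cars. Ghitm, a protein of the inner mitochondrial membrane, had the highest correlation (Pearson's r = 0.992 over 13 arrays and 0.950 within the 8 OMA1 ASO arrays). Its own range was narrow, 14.95 to 15.57 with OMA1 ASO and 16.59 to 16.77 with CTRL ASO. Asns, asparagine synthetase, had r = 0.982 over 13 arrays and 0.809 within the OMA1 ASO arrays, and lay at 9.79 to 11.58 with OMA1 ASO and 14.36 to 15.05 with CTRL ASO. Atf5, a transcription factor of the same stress response, had 0.975 and 0.848. Lonp1, the matrix protease, had 0.973 and 0.678, and Cars, a cytosolic aminoacyl-tRNA synthetase, 0.972 and 0.696. Among the members Aldh1l2 (r = 0.907), Shmt2 (0.859) and Mthfd1l (0.746) followed Mthfd2 over the 13 arrays, and Mthfd2l (0.167), Mtfmt (0.06) and Gcsh (−0.13) did not follow it closely. The 13 arrays include the gap between treated and control hearts, and these correlations are given as a description.

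Genes that supply serine and glycine fell with OMA1 ASO in part. Of 8 genes listed, 3 were lower and 0 higher in the pooled test, where 0.806% of all clusters were lower. The median change of the list was −0.67 on the log2 scale. It includes Sfxn3, below background on every array, and Slc1a4, below background on all arrays but 1 CTRL ASO array. With each ASO alone 2 were lower, Phgdh and Psat1. Phgdh, the first enzyme of serine synthesis, lay at 3.88 to 4.93 with OMA1 ASO, below background on all 8 arrays, and at 7.20 to 8.54 with CTRL ASO, at least 3.48-fold lower (adjusted p = 2.69e-08 from limma). Psat1, the next enzyme, lay at 5.74 to 6.70 with OMA1 ASO and 9.13 to 10.85 with CTRL ASO, 10.8-fold lower (adjusted p = 8.54e-08). Psph, which completes serine synthesis, did not pass and had a log2 fold change of −0.09 (95% interval −0.47 to 0.29). Slc6a9, a glycine transporter of the plasma membrane, lay at 6.91 to 8.17 with OMA1 ASO and 8.20 to 9.06 with CTRL ASO (log2 fold change −1.13, adjusted p = 0.00653 from limma), and it did not pass with ASO1 alone (−1.22, adjusted p = 0.0107) or ASO2 alone (−0.99, adjusted p = 0.1003). The mitochondrial serine carriers Sfxn1 and Sfxn3 and the glycine carrier Slc25a38 did not pass.

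The other lists around the members held 0 called genes in the pooled test. These were 7 measured genes of matrix folate supply and other one-carbon donors (median log2 fold change 0.12), 6 of protein lipoylation (0.05), 4 of mitochondrial translation start (0.23) and 10 of the cytosolic folate enzymes (−0.32), against a median of 0.01 for all clusters. On every array 3 genes of the matrix folate list and 2 of the cytosolic list were below background. The medians include them, and a fall of these genes could not be seen. Lipoylation genes ranged from −0.08 to 0.37 and translation start genes from −0.10 to 0.40. Mthfd1, the cytosolic enzyme that joins dehydrogenase, cyclohydrolase and synthetase activities in 1 protein, had a log2 fold change of −0.38 (95% interval −0.85 to 0.09, adjusted p = 0.533 from limma). Dld, the L protein of glycine cleavage, lay at 17.33 to 17.88 with OMA1 ASO and 17.23 to 17.31 with CTRL ASO and did not pass (log2 fold change 0.38, adjusted p = 0.162). Atic, of the cytosolic list, had the lowest adjusted p of these lists and did not pass (log2 fold change −0.67, adjusted p = 0.0257 from limma). It lay at 7.29 to 8.05 with OMA1 ASO, wholly below the 8.28 to 8.68 with CTRL ASO, as held for 1.39% of all clusters. Mthfd1, Dld and Atic were picked out after their values had been seen.

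**Figure D4:**
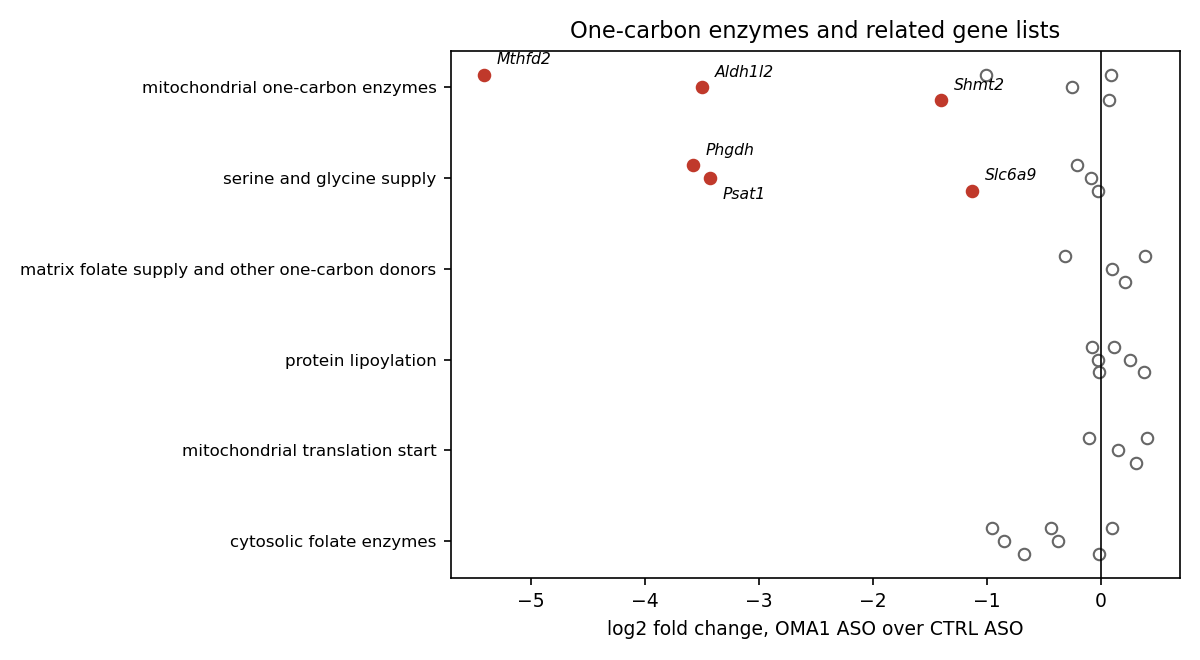
Pooled log2 fold change, OMA1 ASO over CTRL ASO, of 7 members and of 27 measured genes of 5 related lists, 1 point per gene, without genes whose mean was below background in both groups. Filled red points passed at an adjusted p under 0.01 in limma. They lie only among the one-carbon enzymes and the genes of serine and glycine supply, and Phgdh is drawn at its fitted value although its treated arrays were below background.

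One pair of cytosolic folate genes differed between the ASOs. Mthfs, methenyltetrahydrofolate synthetase, lay at 4.82 to 5.39 with OMA1 ASO2, 6.98 to 7.79 with OMA1 ASO1 and 7.08 to 7.71 with CTRL ASO. All 3 ASO2 arrays were below background, at least 2.72-fold lower than ASO1 (adjusted p = 0.000151 from limma) and at least 2.74-fold lower than CTRL ASO (adjusted p = 1.98e-05). Mthfsl, a gene of like sequence, showed the same split, at 4.41 to 4.94 with OMA1 ASO2, 6.28 to 7.44 with OMA1 ASO1 and 6.91 to 7.19 with CTRL ASO, at least 1.99-fold lower than ASO1 (adjusted p = 0.000133). Probes of near copies may read both transcripts, so this pair cannot be counted as separate measurements.

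Markers of other cells also varied between the groups, and their part in these results was not tested. The summed level of the 4 measured smooth muscle and pericyte markers was 14.03 to 14.46 with OMA1 ASO1 and 13.32 to 13.81 with OMA1 ASO2, against 14.14 to 15.55 with CTRL ASO, so that ASO2 lay wholly below CTRL ASO and ASO1 overlapped it. The markers did not move one way, with pooled log2 fold changes of −1.34 for Acta2, −0.34 for Cspg4, 0.05 for Rgs5 and 0.96 for Myh11, none of which passed. Fibroblast markers summed to 18.41 to 19.00 with OMA1 ASO and 17.76 to 18.85 with CTRL ASO, and macrophage markers to 8.62 to 10.76 with OMA1 ASO and 9.69 to 10.65 with CTRL ASO. The 4 measured proliferation markers summed to 6.29 to 10.08 with OMA1 ASO and 6.68 to 6.92 with CTRL ASO, and 3 of them were below background on every array.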

How the data were processed

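The authors made the deposited log2 signals from Clariom S Mouse arrays of total RNA (RNeasy kit) in Transcriptome Analysis Console 4.0.1 with default settings, by gene-level SST-RMA, a method that removes background, equalizes the arrays by quantile normalization and gives 1 value per transcript cluster. Changes of genes near background are understated on this scale. For the array annotation a genome build is not given in the sources here. Of 28846 probe sets, 6640 controls were left out and 22206 clusters were tested without a filter; 19572 had 1 gene symbol (19505 genes) and 2634 none. Each member had 1 cluster, and symbols were matched through Entrez IDs to GRCm38.p6 for names only.

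Using R 4.3.3, limma 3.58.1 (lmFit and eBayes, no trend, not robust, two-sided) was run on the log2 values as deposited, with Benjamini-Hochberg adjustment over all clusters and a threshold of 0.01. The pooled comparison set 8 OMA1 ASO arrays against 5 CTRL ASO arrays. The ASOs were compared singly in a model of 3 group means with a shared spread. Exact permutation tests were run in Python 3.11.15 with SciPy 1.17.1. Where all arrays of a group lay below background, the fold is a bound against the background of each array. The fits were tested on simulated data. A log2 change of −2 was called for 46 of 50 clusters pooled, 44 with ASO1 and 40 with ASO2. For a change of −1 these counts were 28, 19 and 15, and for a change of 1 they were 25, 17 and 6. A change of 1 log2 unit can therefore fail to pass.

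The rule for named genes took all members, Oma1, Chchd10, Atf4, the called genes of each pathway list and the 5 clusters most correlated with Mthfd2. The members and lists were chosen with earlier results of these data known. Psph, Sfxn1, Sfxn3, Slc1a4, Slc25a38, Mthfd1, Atic and Dld fall outside the rule. Fpgs, Pdf, Pdgfra, Egfl7, Cd68 and Ccnb1 are listed but not named in the annotation. Tried as alternatives were robust fitting with a mean-variance trend, quantile normalization again, centring, a filter at the median signal, array weights, a replicate block, a Y-linked covariate, only the groups compared, the equal-weight mean of both ASOs, a threshold of 0.05 and leaving out each array. Arrays without Y-linked signal were tried after the data were seen. Separate mice are taken as replicates, and the number of arrays limits the precision.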

Additional observations from a re-analysis of the deposited data

How the results depend on the processing

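The 3 members called in the pooled comparison were also called with a mean-variance trend, quantile normalization again, centring, a filter at the median signal, array weights, the replicate block, a Y-linked covariate and the equal-weight mean of both ASOs, and 4 were at a threshold of 0.05. Leaving out 1 array gave 2 to 4 members in the pooled comparison, 2 to 3 with ASO1 alone, 2 with ASO2 alone and 0 between the ASOs. Shmt2 passed with ASO1 alone under a trend (adjusted p = 0.00914 from limma), array weights (0.00619), the replicate block (0.00701) and without CTRL ASO replicate 5 (0.00415). Over all alternatives the pooled change was −5.72 to −5.26 for Mthfd2 (adjusted p up to 0.000128) and −3.66 to −3.27 for Aldh1l2 (adjusted p up to 0.000261).

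Signs turned only in changes that did not pass. With the Y-linked covariate, Mtfmt was −0.011 pooled and −0.26 with ASO2, where Mthfd2l was −0.086 and Gcsh 0.0024, and Shmt2 was 0.0084 between the ASOs. With ASO2, Gcsh was 0.038 after quantile normalization again and 0.00013 with array weights, and among arrays without Y-linked signal Mthfd2l was −0.12, Mtfmt −0.060 and Gcsh 0.047. Between the ASOs Shmt2 was 0.034 with array weights. Leaving out 1 array, Mtfmt ranged from −0.058 to 0.21 pooled, −0.11 to 0.36 with ASO1, −0.13 to 0.13 with ASO2 and −0.35 to 0.12 between the ASOs. Mthfd2l ranged from −0.15 to 0.30 and Gcsh from −0.11 to 0.11 with ASO2, and Shmt2 from −0.28 to 0.23 between the ASOs. The cause was not tested.

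Correlations between same-numbered arrays, taken on deviations from their group means, ran from −0.11 to 0.18. Differently numbered arrays were not compared, so these values cannot show whether the replicate numbers pair the mice. With the replicate block Mthfd2l was −0.049 with ASO2 and Shmt2 0.087 between the ASOs, and calls over all clusters were 196 (230 without the block), 197 (204 with ASO1), 124 (169 with ASO2) and 14 (23 between the ASOs). Other counts over all clusters that moved by over 1.5 times were, for ASO2, 107 with the Y-linked covariate, and between the ASOs 39 with a trend and 9 with only the groups compared. Among arrays without Y-linked signal they were 128 pooled and 108 with ASO1, and at a threshold of 0.05 they were 506, 412, 355 and 51. Leaving out 1 array gave 142 to 317 pooled, 140 to 286 with ASO1, 96 to 269 with ASO2 and 8 to 38 between the ASOs, highest each time without OMA1 ASO1 replicate 5. Taking every cluster of a member changes nothing, since each has 1. Signals near background limit Aldh1l2 and Mthfd1l, and nothing can be said of Gldc and Amt beyond their being below it.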
